A study of Mus musculus with 26 samples.

Results

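The genes described here encode proteins that hepatocytes secrete into blood plasma, and they were taken as 39 gene symbols out of 52454 in the expression table. The rule used gene symbols and no measured values, and all 39 were found. The group holds 10 carriers and binding proteins, 9 apolipoproteins, 10 proteins of coagulation and fibrinolysis, 8 protease inhibitors and matrix-binding proteins, and 2 proteins of complement and cell adhesion. Their levels were followed through the 10 RNA-seq libraries of a study of the de novo DNA methyltransferases DNMT3A and DNMT3B in mouse development.

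Plasma proteins are made in bulk by the liver parenchymal cell. In the fetus this cell, the hepatoblast or young hepatocyte, already secretes albumin, transferrin and lipoproteins, while alpha-fetoprotein serves as a fetal counterpart of albumin. The genes are read by a shared set of liver transcription factors, among them HNF1, HNF4A, the FOXA factors and the C/EBP factors. Fetal liver is at the same time the main site of blood formation, so its RNA is a mixture of hepatocyte and erythroid transcripts. A few of the 39 genes are also used elsewhere, of which *Apoe* is best known, being made by macrophages and many stromal cells.

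Heart and liver came from male C57BL6 embryos at E14.5, 1 labelled *Dnmt3a* WT and 1 labelled *Dnmt3a* KO, and both tissues carried the same number in the labels. Mouse embryonic fibroblasts (MEFs) of the same sex, age and strain label were WT or labelled *Dnmt3a* KO and were cultured with the solvent DMSO or with GSK126, an inhibitor of the histone methyltransferase EZH2. Per the study's methods, the null allele (tm1Enl) was kept in heterozygous crosses. The remaining libraries were 2i-MEFs, fibroblasts of E14.5 chimeric embryos grown from female embryonic stem cells that had been kept in 2i/L medium. Those stem cells were F1 hybrids of 129X1/SvJ and MSM/Ms in which *Dnmt3a* or *Dnmt3b* had been disrupted with CRISPR, and cells of the host embryo were removed by drug selection and sorting for GFP. Hearts and livers were whole organs, so a lower level can reflect fewer hepatocytes or less RNA per hepatocyte, and these cannot be told apart here.

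There was 1 library per condition. Every ratio below therefore compares a pair of libraries with no replicate of either condition. A test was run only where 4 libraries crossed 2 factors, organ with embryo or genotype label with medium, by a limma fit of both factors that left 1 residual degree of freedom. Estimated depth ran from 9153116 to 26161644 mapped reads, so a single read on 2000 bases of transcript stood for 0.0212 to 0.0605 FPKM (fragments scaled to transcript length and library depth). *Dnmt3a* itself followed the labels in liver, at 53.5 FPKM in WT and 12.7 in the library labelled KO. It went against them in heart (55.0 in WT and 125 in the library labelled KO) and in MEFs with DMSO (26.1 and 85.7) and with GSK126 (19.3 and 84.5). In 2i-MEFs it was 4.21 FPKM with the *Dnmt3a* disruption against 23.9 with that of *Dnmt3b*, and *Dnmt3b* was 1.81 against 0.817. An FPKM outside a deleted exon would not show the deletion, and the term "labelled *Dnmt3a* KO" is used for these libraries.

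The upstream sequences of the albumin family and of *Apoe* are shown because they mark the extremes of the group: the former were almost confined to liver by level, and the latter was high in all 10 libraries. The sequences are RefSeq's on GRCm38.p6, each the 250 bases before the transcription start, read 5′ to 3′ on the gene's strand. *Alb*, albumin, lies at chr5:90460620-90460869 (+), *Afp*, alpha-fetoprotein, at chr5:90490464-90490713 (+), *Gc*, the vitamin D binding protein, at chr5:89457899-89458148 (-), and *Apoe* at chr7:19699189-19699438 (-). Capitals mark matches on either strand to 5 short motifs: GTTAATNAT (HNF1 type), TGTTTGC (FOXA type), TTGCNNAA (C/EBP type), CAAAGTCCA (HNF4 type) and TATAAA (core promoter box).
Alb: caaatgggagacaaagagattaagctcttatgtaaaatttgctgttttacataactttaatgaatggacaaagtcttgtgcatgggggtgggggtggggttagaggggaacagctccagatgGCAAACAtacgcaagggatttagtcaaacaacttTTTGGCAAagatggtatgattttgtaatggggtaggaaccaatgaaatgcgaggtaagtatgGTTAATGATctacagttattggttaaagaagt
Afp: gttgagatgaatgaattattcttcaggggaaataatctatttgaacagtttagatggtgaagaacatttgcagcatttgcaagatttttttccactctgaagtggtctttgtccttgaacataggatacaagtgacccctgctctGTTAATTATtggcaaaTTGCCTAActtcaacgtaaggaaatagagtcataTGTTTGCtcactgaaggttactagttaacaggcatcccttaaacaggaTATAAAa
Gc: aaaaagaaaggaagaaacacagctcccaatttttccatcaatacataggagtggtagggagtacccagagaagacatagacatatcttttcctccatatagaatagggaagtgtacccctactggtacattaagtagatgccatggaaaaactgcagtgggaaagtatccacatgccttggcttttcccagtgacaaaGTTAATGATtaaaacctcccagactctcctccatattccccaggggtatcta
Apoe: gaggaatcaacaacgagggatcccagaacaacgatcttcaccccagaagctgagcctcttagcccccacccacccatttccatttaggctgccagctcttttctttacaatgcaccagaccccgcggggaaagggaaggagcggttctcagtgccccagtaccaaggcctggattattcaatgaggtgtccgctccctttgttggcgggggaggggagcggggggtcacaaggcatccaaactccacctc

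The HNF1-type motif began 32 bases before the RefSeq start of *Alb*, 105 bases before that of *Afp* and 52 bases before that of *Gc*. RefSeq puts the start of *Alb* at 90460870 and that of *Afp* at 90490714. The gene coordinates of the deposited values begin further downstream, at 90460897 and 90490737. *Alb* also held 1 FOXA-type and 1 C/EBP-type match, and *Afp* held 1 of each and the core promoter box. None of the 5 motifs was found in the *Apoe* window, whose GC content was 57.2%, against 39.2% for *Alb*, 36.0% for *Afp* and 42.0% for *Gc*; RefSeq lists 3 starts for *Apoe*, and the core promoter box lies before another of them. RefSeq promoters were matched by symbol for 32 of the 39 genes. Of these, 5 (15.6%) held the HNF1-type motif (*Alb*, *Afp*, *Gc*, *Fga* and *Cp*), against 0.866% of 27025 genes with a promoter. The FOXA-type motif was found in 9 (28.1%) against 4.93%, the C/EBP-type motif in 14 (43.8%) against 10.8%, the core promoter box in 8 (25%) against 14.3%, and the HNF4-type motif in 0 against 0.451%. *Cp*, higher in every fibroblast library than in either liver, held the HNF1-type and C/EBP-type motifs and the core promoter box. Both strands were searched, and these are letter matches with no measure of binding. The motif spellings were chosen after looking at their matches, so the shares are descriptions and no test of enrichment.

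In WT liver, plasma protein genes were among the most abundant transcripts of the tissue. *Alb* ranked 8 of all symbols at 7396 FPKM, *Afp* 9 at 7091 FPKM and *Trf*, encoding the iron carrier transferrin, 11 at 5678 FPKM. They were followed by *Apoa2* (3249 FPKM) and *Apoa1* (2474 FPKM), the main proteins of high-density lipoprotein, by *Apoe* (2124 FPKM), a ligand of lipoprotein receptors, and by *Rbp4* (1071 FPKM), the retinol carrier. *Ahsg*, encoding the mineral-binding protein fetuin-A, came next at 878 FPKM. In all, 7 members stood at 1000 FPKM or more, 30 at 100 or more and 37 at 1 or more, with a median of 260.6 FPKM. Together they took 3.94% of all FPKM of the library.

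Not all of the group was active at this stage. *Apoa4*, an apolipoprotein of intestinal and liver lipoproteins, was listed at 0 in all 10 libraries, and *Apoc3*, an inhibitor of lipoprotein lipase, reached 4.77 FPKM in WT liver. Both lie beside *Apoa1* on chromosome 9: *Apoa1* at 46228580 to 46230466, *Apoc3* at 46232933 to 46235636 and *Apoa4* at 46240696 to 46243459 (mm10), so that neighbouring genes ranged from 2474 FPKM to 0. Coagulation factor IX (*F9*, 0.888 FPKM), *Fetub*, encoding fetuin-B (1.06 FPKM), and *Cp*, encoding the copper protein ceruloplasmin (3.04 FPKM), were the other members under 10 FPKM. By contrast, the 3 fibrinogen chains, whose genes also sit side by side on chromosome 3 and whose products assemble in 1 protein, were within a narrow range in WT liver: 268 FPKM for *Fga*, 146 for *Fgb* and 249 for *Fgg*. *Serpina1a* (149 FPKM) and *Serpina1b* (684 FPKM), 2 copies of the alpha-1-antitrypsin gene, are nearly identical in sequence, and the split of reads between them is uncertain.

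**Figure D1:**
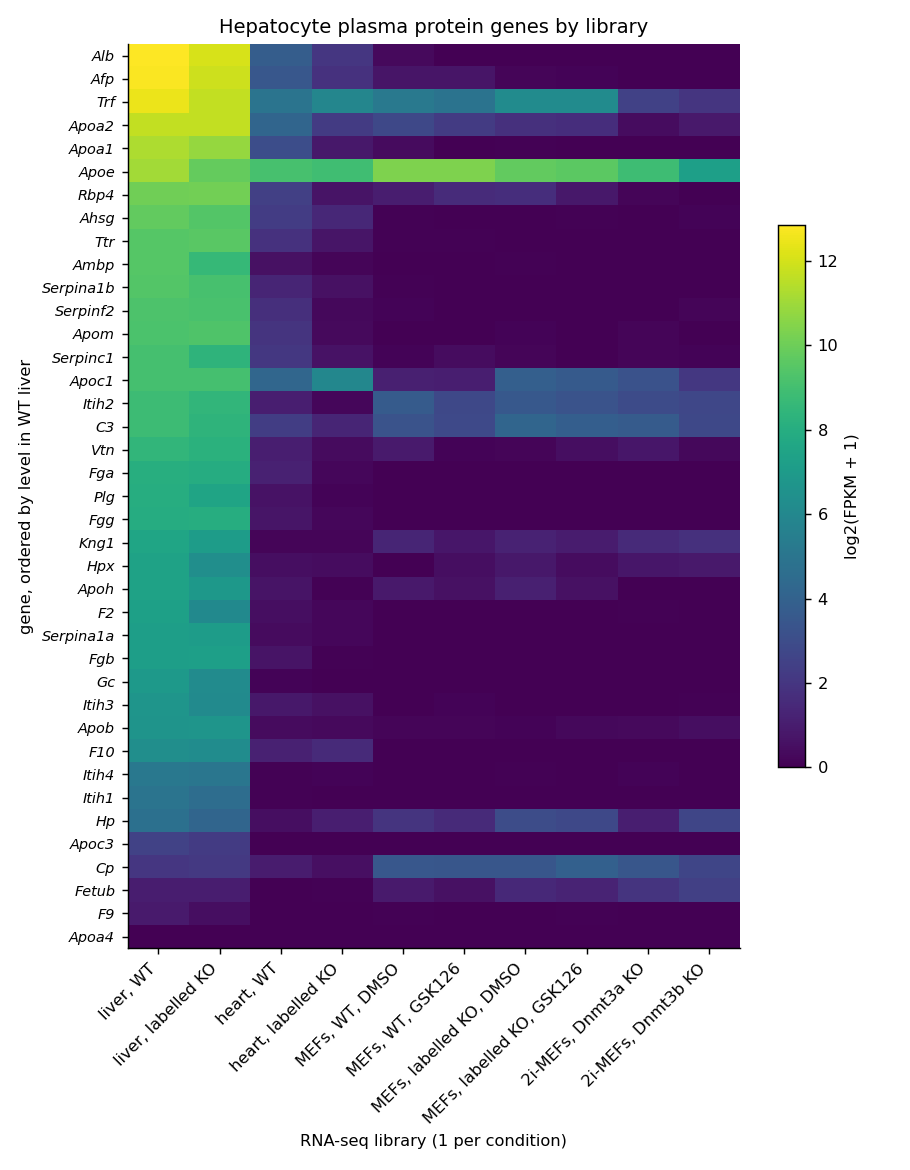
Level of each of the 39 plasma protein genes, as log2(FPKM + 1), in the 10 libraries, with genes ordered by WT liver and 1 library per column. Both livers are bright for most genes, *Apoe* is bright in every column, and *Apoa4* is at 0 throughout.

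The liver labelled *Dnmt3a* KO kept the same overall pattern at a lower summed level. Its 39 genes took 2.56% of all FPKM, and their summed FPKM was 25647, against 37863 in WT, a 1.48-fold difference. The gap lay mostly in 4 genes, *Alb*, *Afp*, *Trf* and *Apoe*, which were picked after the values were seen. Together they were 1.81-fold lower, while the other 35 summed were 1.17-fold lower. *Apoa2* and *Apoa1*, both above *Apoe* in WT liver, are among the other 35. *Alb* was 7396 FPKM in WT and 4323 in the library labelled KO, *Afp* 7091 and 3785, and *Trf* 5678 and 3284. *Alb* accordingly ranked 19 of all symbols there, and its ratio to *Afp* was 1.04 in WT and 1.14 in the other library. *Apoa2*, in contrast, was 3249 and 3276 FPKM, and *Rbp4* was 1071 and 1126 FPKM.

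**Figure D2:**
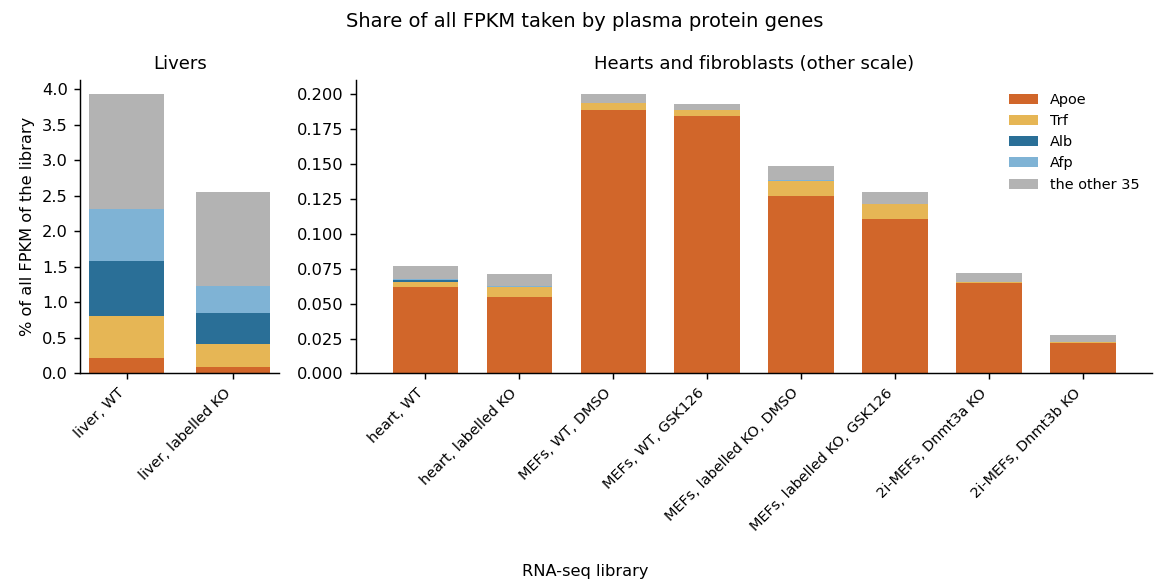
Plasma protein genes as a percent of all FPKM of each library, with *Apoe*, *Trf*, *Alb*, *Afp* and the sum of the other 35 stacked; hearts and fibroblasts are drawn on a scale of their own. The group took 3.94% and 2.56% of the livers, and no more than 0.2004% elsewhere, where *Apoe* made up 77.4% to 95.4% of it.

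Over all 39 genes the median log2 ratio of FPKM + 1 (labelled KO against WT) was -0.36, against -0.08 over the 12816 genes that averaged 1 FPKM or more in this pair of livers. Of the 37 members that passed this filter, 28 had a lower and 9 a higher value in the library labelled KO, where 61.6% of all such genes were lower. Lower by 2-fold or more were 3 members: *Apoe* (2124 FPKM in WT and 892 in the library labelled KO), *F2*, encoding prothrombin (156 and 67.7), and *Hpx*, encoding the heme carrier hemopexin (170 and 79.5). Among all genes 2.01% were lower by this much. No member was at least 2-fold higher, and 1.21% of all genes were. The highest ratios belonged to *Cp* (3.04 and 3.44 FPKM), *Rbp4* and *Apom*, an apolipoprotein that carries sphingosine phosphate (599 and 629 FPKM), all of them at most 0.14 on the log2 scale.

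By role, 7 of the 10 carriers were lower, near the 61.6% of all genes, with a median log2 ratio of -0.75 and a range from -1.09 (*Hpx*) to 0.14 (*Cp*). *Ambp*, the precursor of alpha-1-microglobulin and bikunin, was 699 FPKM in WT and 388 in the library labelled KO, and *Gc* was 119 and 71.9. Transthyretin, the thyroid hormone carrier (*Ttr*), was 715 and 745 FPKM. The 8 measured apolipoproteins had a median of -0.14, and apart from *Apoe*, *Apoh* (166 and 114 FPKM) and *Apoa1* (2474 and 1808) they lay close to 0 or at low level. *Apoc1* was 537 and 541 FPKM, and *Apob*, the structural protein of low-density lipoprotein, 101 and 104.

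The 9 measured genes of coagulation and fibrinolysis had a median log2 ratio of -0.14. Within this set, *F2* (-1.19), antithrombin (*Serpinc1*, -0.73) and plasminogen (*Plg*, -0.54) had the lowest ratios, whereas the fibrinogen chains stayed between -0.14 and 0.05. *Serpinf2*, encoding the plasmin inhibitor, was 616 and 565 FPKM, *F10*, coagulation factor X, 80.8 and 75.7, and *Kng1*, encoding kininogen, 184.4 and 134.6. All 8 protease inhibitors and matrix-binding proteins had ratios below 0, from -0.53 (*Itih3*, a hyaluronan-binding chain) to -0.01 (*Fetub*), with a median of -0.34. *Itih2* was 455 and 346 FPKM, *Itih4* 34.6 and 32.0, and *Itih1* 29.6 and 22.9. Complement *C3* was 449 and 328 FPKM, and vitronectin (*Vtn*) 357 and 292. Ratios within 0.1 of 0 were thus seen for 10 of the 37 measured members, where 27.8% of all genes had them. Lower by at least 1.5-fold were 9 members (*Alb*, *Afp*, *Trf*, *Apoe*, *Ambp*, *Serpinc1*, *F2*, *Hpx* and *Gc*), where 6.69% of all genes were.

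**Figure D3:**
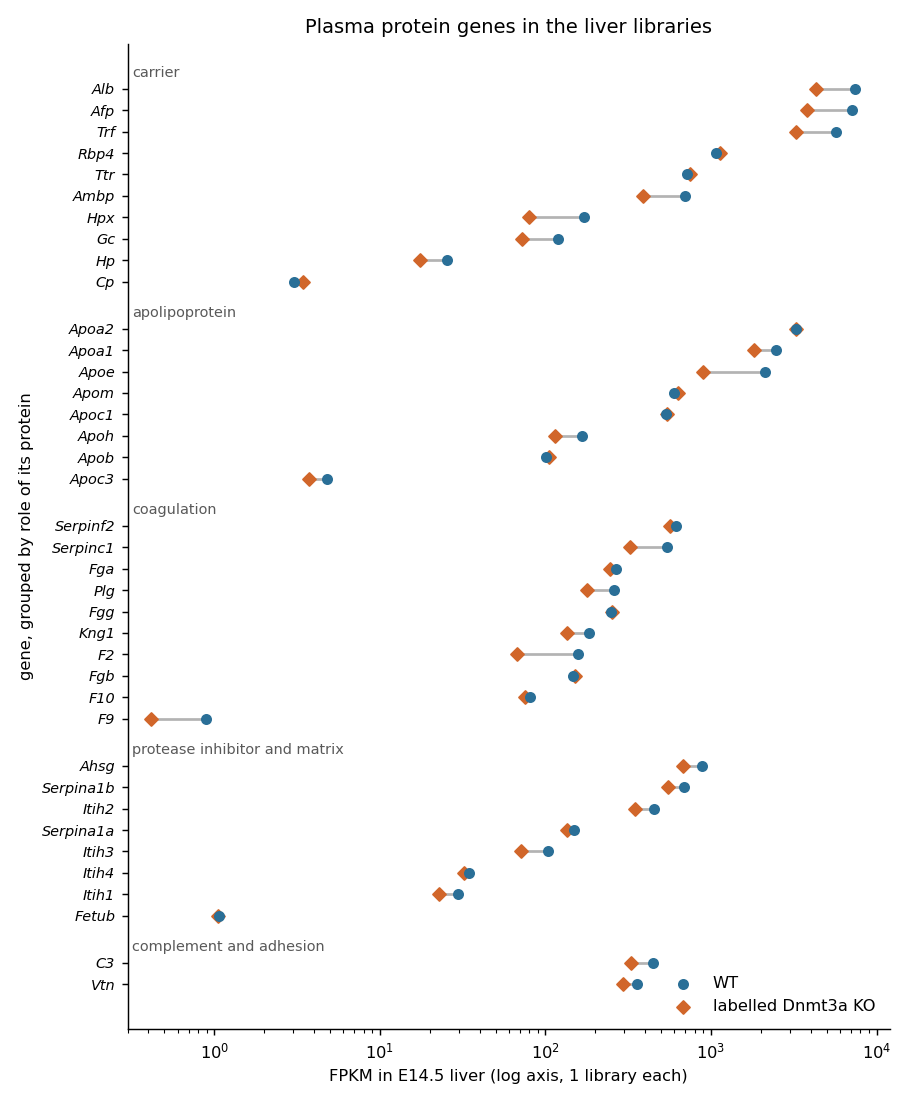
FPKM of 38 plasma protein genes in the WT liver (circles) and the liver labelled *Dnmt3a* KO (diamonds), on a log axis, grouped by role; *Apoa4*, at 0 in both, is left out. Diamonds sit well to the left of circles for *Apoe*, *F2* and *Hpx*, and on them for *Apoa2*, *Rbp4*, *Ttr* and the fibrinogen chains.

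Other liver genes gave a scale for these values. Of 59 further plasma protein genes, 49 passed the filter in liver, with a median log2 ratio of -0.12. At least 2-fold lower were 3 of them (*F12*, *Cfi* and *A2m*), against 2.01% of all genes, and none was higher, against 1.21%. The most abundant of these plasma protein genes was *Serpina6*, encoding the glucocorticoid carrier of plasma, at 1423 FPKM in WT and 1417 in the library labelled KO. Hepatocyte transcription factors (17 of 21 measured, median -0.21) and enzymes of hepatocyte metabolism (14 of 25, median -0.14) had no gene past 2-fold. *Hnf4a* was 40.4 and 40.6 FPKM, and *Cebpa* 28.3 and 23.1. Of 11 acute phase genes, which liver raises in inflammation, 5 were measured, with a median of 0.09 and 1, *Hamp*, encoding the iron hormone hepcidin, at least 2-fold higher. Of the 7 hepatoblast markers 6 were measured, with a median of -0.10 and 1, *Gpc3*, at least 2-fold lower (176 and 57.6 FPKM). *Dlk1* was 1637 and 1078 FPKM, while the keratin gene *Krt8* was 93.7 and 96.9.

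Markers of other cells differed between the livers as well. Erythroid markers (18 of 19 found) summed to 13.1% of all FPKM in WT and 16.7% in the library labelled KO, and *Hba-a1*, an alpha globin, was 44330 and 57575 FPKM. The sum was carried by a few globins: the median log2 ratio of the 18 markers was 0.03, and 9 of them were lower in the library labelled KO. With the erythroid genes taken out of the total, the plasma protein genes took 4.53% and 3.07%. The 14 macrophage markers summed to 507 and 311 FPKM (12 and 11 of them at 1 FPKM or more), and 12 fibroblast markers to 723 and 441 FPKM. The 18 cardiomyocyte markers summed to 155 and 51.5 FPKM, with *Actc1* at 48.5 and 3.97. Of the 9 measured cardiomyocyte markers 5 were at least 2-fold lower, against 2.01% of all genes, and 2 at least 2-fold higher, against 1.21%. The 2 higher ones were *Myl2* (0.493 and 4.91 FPKM) and *Tnni3* (0.525 and 2.27). The part of these cells in the liver differences was not tested. Across the 34 members that averaged 10 FPKM or more, the log2 ratio had a Spearman correlation of -0.16 with transcript length, -0.12 with GC content and -0.14 with the WT level. Over 7032 genes of that level the same values were -0.05, -0.25 and 0.03; the points share both libraries, and these are descriptions.

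The heart holds no hepatocytes, and the question there was how much plasma protein RNA it contained. Liver exceeded heart by at least 2-fold for all 36 members that could be compared in WT (average of 1 FPKM or more) and for 35 of 36 in the library pair labelled KO, *Apoe* being the exception at 0.89 on the log2 scale. Among all genes, 21.1% were at least 2-fold higher in liver and 20.3% lower in the WT pair, and 19.8% and 23.3% in the pair labelled KO. The median log2 ratio of liver to heart over the 39 genes was 6.90 in WT and 6.88 in the pair labelled KO, where all genes had medians of 0.11 and 0.02. Many members entered these counts through their liver level alone and so had to differ. In the limma fit of both organs and both embryos, where 63.1% of 13714 genes passed a Benjamini-Hochberg adjusted p of 0.05 in either direction, 20 of the 36 members averaged under 1 FPKM in the hearts. The other 16 were higher in liver at an adjusted p of at most 0.00868, against 32.9% of the 11511 genes that averaged 1 FPKM or more in each organ. Each embryo counts as a replicate there although the labels differ in genotype.

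Expressed as a percent of the liver level, heart values were small and alike for most members in WT. Over the 37 members with at least 1 FPKM in liver the median was 0.315%, the quartiles were 0.211% and 0.529%, and 32 members were under 1%. *Alb* was 12.7 FPKM in WT heart (0.172% of liver), *Afp* 10.1 (0.143%), *Apoa1* 7.08 (0.286%) and *Ahsg* 3.89 (0.443%). The levels in heart followed those in liver, with a Spearman correlation of 0.858 across the 39 genes in WT. In the pair labelled KO it was 0.679. These are correlations across genes of 1 embryo number each, and genes are not independent replicates.

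Members with the highest heart level relative to liver stood apart from this. *Cp* was at 1.002 FPKM in WT heart, 33.0% of its low liver level, and *Apoe* at 545 FPKM, 25.7% of liver. *Apoc1*, a small apolipoprotein whose gene lies next to *Apoe* on chromosome 7, was at 18.2 FPKM (3.40%). In the library labelled KO the order was *Apoe* (481 FPKM, 53.9%), *Cp* (0.441 FPKM, 12.8%) and *Apoc1* (60.0 FPKM, 11.1%). These genes were also detected in fibroblasts.

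The hearts differed from each other in the RNA of the liver-restricted members. Of the 39 genes, 27 were below 1 FPKM in all 6 fibroblast libraries, and 25 of these had at least 1 FPKM in WT liver. Among the 25, the WT heart had the higher level for 22 and the heart labelled KO for 2 (*F10* and *Itih4*), while *Apoc3* was at 0 in both. Among all 1005 genes within these limits, 48.8% were higher in the WT heart and 35.6% in the heart labelled KO. *Alb* was 12.7 FPKM in the WT organ against 3.04 in the one labelled KO, *Afp* 10.1 and 2.57, *Apoa1* 7.08 and 0.777, and *Apom* 2.86 and 0.239. Over the 22 members above 0 in both hearts the median WT level was 3.90-fold that of the library labelled KO, with a range from 0.356-fold (*Itih4*, 0.0358 and 0.101 FPKM) to 11.9-fold (*Apom*). Both ends rest on few reads: the estimate in the heart labelled KO was 1 to 5 reads for *Itih4* and 3 reads for *Apom*, as it was 4 for *Fgb*. *Gc* and *Itih1* were above 0 in the WT heart only, at an estimated 0 to 3 reads each, and were listed at 0 in the other. Summed over the 25 genes, heart held 54.7 FPKM in WT against 14.54 in the library labelled KO, which was 0.229% and 0.0933% of the corresponding liver. *Dnmt3a* ran opposite ways in the organs that share an embryo label, and whether a label is exchanged was not tested. Set against the liver of the other label, the hearts held 0.351% and 0.0608%.

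The same direction was present in plasma protein genes outside the group. Of the 59 further genes, 32 met the same limits in fibroblasts and WT liver, and the WT heart was higher for 22, the heart labelled KO for 2 (*Apoc4* and *Proz*), and both were equal for 8, values under 0.001 FPKM being taken as 0. *Serpina6* was 5.63 FPKM in the WT heart against 0.738 in that labelled KO, with nearly equal liver levels. Summed, these 32 genes held 0.439% of the liver level in the WT embryo against 0.0970% in the embryo labelled KO. Of the hepatocyte transcription factors 10 were measured in the hearts, 5 lower and 5 higher in the one labelled KO, with a median log2 ratio of -0.01.

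Erythroid markers, which blood in the organ would bring, also differed. All 18 found reached 1 FPKM in the WT heart against 15 in that labelled KO, their sum was 61256 and 54210 FPKM, and among 17 measured the median log2 ratio was -0.57. *Hba-a1* was 15171 and 11485 FPKM, whereas *Hbb-y*, an embryonic globin and the most abundant of the list in heart, was 23670 and 27151. The 14 macrophage markers summed to 124 and 132 FPKM, and all 18 cardiomyocyte markers reached 1 FPKM in both hearts (77394 and 73022 FPKM summed). Visceral endoderm, another source of *Afp* and apolipoproteins in the embryo, had 5 markers, with sums of 26.2 and 47.4 FPKM. *Rhox5* alone was 15.5 and 37.7, and the other 4 summed to 10.7 and 9.70 FPKM. The part of liver tissue, blood or of these cells in the heart values was not tested.

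By fold alone, 16 members averaged 1 FPKM or more in the hearts. Of these, 10 were lower by 2-fold or more in the KO-labelled organ (*Alb*, *Afp*, *Apoa1*, *Apoa2*, *Apom*, *Ttr*, *Serpinc1*, *Serpinf2*, *Rbp4* and *C3*), where 1.40% of all genes were. *Apoc1* was the 1 member at least 2-fold higher, at 18.2 FPKM in WT and 60.0 in the library labelled KO, and 1.72% of all genes were higher by that much. Of the 10, 6 passed the filter through the WT heart alone, being under 1 FPKM in the other. Among the 9 members at 1 FPKM or more in both hearts, 4 were lower by 2-fold or more (*Alb*, *Afp*, *Apoa2* and *C3*), where 0.650% of all such genes were. The median log2 ratio was -0.47 over all 39 members, -1.28 over the 16, and 0.00 over all 13282 genes of that level. A limma fit of embryo over both organs called 0 of 36 members at an adjusted p under 0.05 (smallest 0.94) and 14 at an unadjusted one. Of all genes 0.00729% passed the adjusted and 4.63% the unadjusted limit. Both organs of a label came from 1 embryo, so these p-values do not cover the spread between embryos. Of the 36 members, 20 entered the fit through their liver level alone. No difference by genotype is drawn from it. *Trf* went the other way from most, at 30.1 FPKM in WT and 58.5 in the library labelled KO, and *Apoe* was 545 and 481 FPKM.

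**Figure D4:**
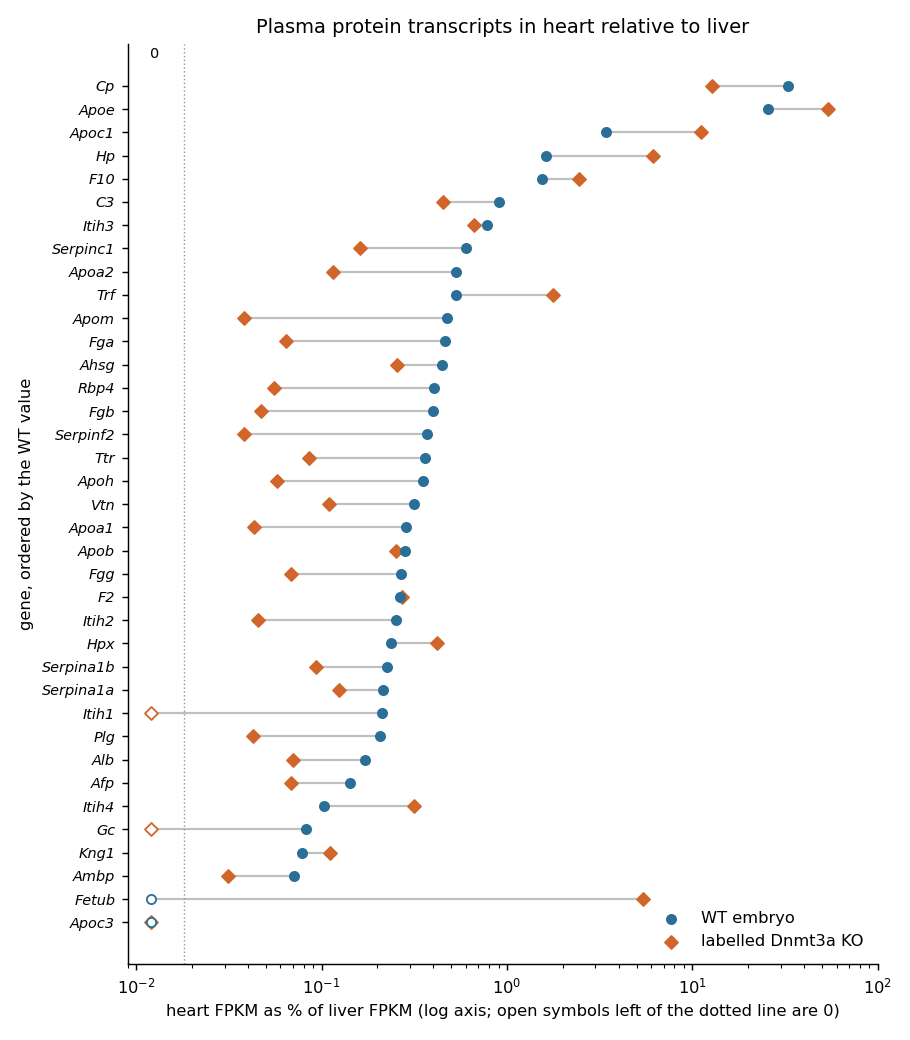
Heart FPKM as a percent of liver FPKM for the 37 members with at least 1 FPKM in liver, on a log axis, for the WT embryo (circles) and the embryo labelled *Dnmt3a* KO (diamonds); open symbols are 0. Most circles lie between 0.1% and 1% with the diamond to their left, while *Apoe*, *Apoc1*, *Hp*, *Trf* and *F10*, among others, have diamonds to the right.

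In fibroblasts the group was nearly silent apart from a few genes. The 39 genes took 0.130% to 0.2004% of all FPKM in MEFs and 0.0273% to 0.0716% in 2i-MEFs, and *Apoe* alone made up 80.0% to 95.4% of that. Between 14 and 22 of the 39 genes were listed at 0 in each fibroblast library, and 9 to 12 reached 1 FPKM. *Alb* was 0.243 FPKM in WT MEFs with DMSO and 0 in the other 5, and *Fgb*, *Fgg*, *F10*, *Gc*, *Itih1* and *Serpina1a* were at 0 in all 6. Of the 21 hepatocyte transcription factors, 5 to 8 reached 1 FPKM in a fibroblast library. *Atf5* was 159 to 281 FPKM there, above both livers, and *Cebpa* 5.84 to 15.7, whereas *Hnf4a* was at 0 in 5 libraries and at 0.0220 FPKM in the other.

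The 5 members with the highest mean over the 6 fibroblast libraries were *Apoe*, *Trf*, *C3*, *Cp* and *Itih2*. *Apoe* was 1338 FPKM in WT MEFs with DMSO and 1309 with GSK126, 862 and 782 in MEFs labelled KO, and 457 and 153 in 2i-MEFs (*Dnmt3a* KO first). Every MEF library thus lay above every 2i-MEF library. *Trf* was 35.8 and 28.6 FPKM in WT MEFs, 73.7 and 73.4 in MEFs labelled KO, and 4.53 and 3.00 in 2i-MEFs, which gave the same split between the kinds of fibroblasts. *C3* was 8.68 and 6.05 FPKM in WT MEFs, 17.2 and 13.5 in MEFs labelled KO, and 11.95 and 5.999 in 2i-MEFs.

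*Cp* was higher in all 6 fibroblast libraries (5.55 to 14.3 FPKM) than in either liver (3.04 and 3.44). *Itih2*, whose product stabilises hyaluronan in the matrix, ranged from 5.69 to 12.1 FPKM. *Fetub* was 2.77 and 4.37 FPKM in 2i-MEFs, 0.880 and 0.508 in WT MEFs and 1.83 and 1.43 in MEFs labelled KO, against 1.06 and 1.05 in the livers. *Apoa2* was 5.89 and 3.65 FPKM in WT MEFs, 2.43 and 2.203 in MEFs labelled KO, and 0.356 and 0.849 in 2i-MEFs. Haptoglobin (*Hp*), the hemoglobin carrier, was 2.87 and 1.88 FPKM in WT MEFs, 6.86 and 5.81 in MEFs labelled KO, and 1.12 and 5.34 in 2i-MEFs (*Dnmt3a* KO first).

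MEFs and 2i-MEFs also differed in macrophage markers, whose 14 genes summed to between 1373 and 1955 FPKM in MEFs and to 29.2 and 16.4 FPKM in the sorted 2i-MEFs. *Lyz2* was 638 to 885 FPKM in MEFs and 15.996 and 11.5 in 2i-MEFs. Between 10 and 11 of the 14 reached 1 FPKM in MEFs and 5 and 3 in 2i-MEFs, where 6 were at 0 in each. Their part in the *Apoe* levels was not tested, and strain and sex also differ between these cells, as do selection and sorting.

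**Figure D5:**
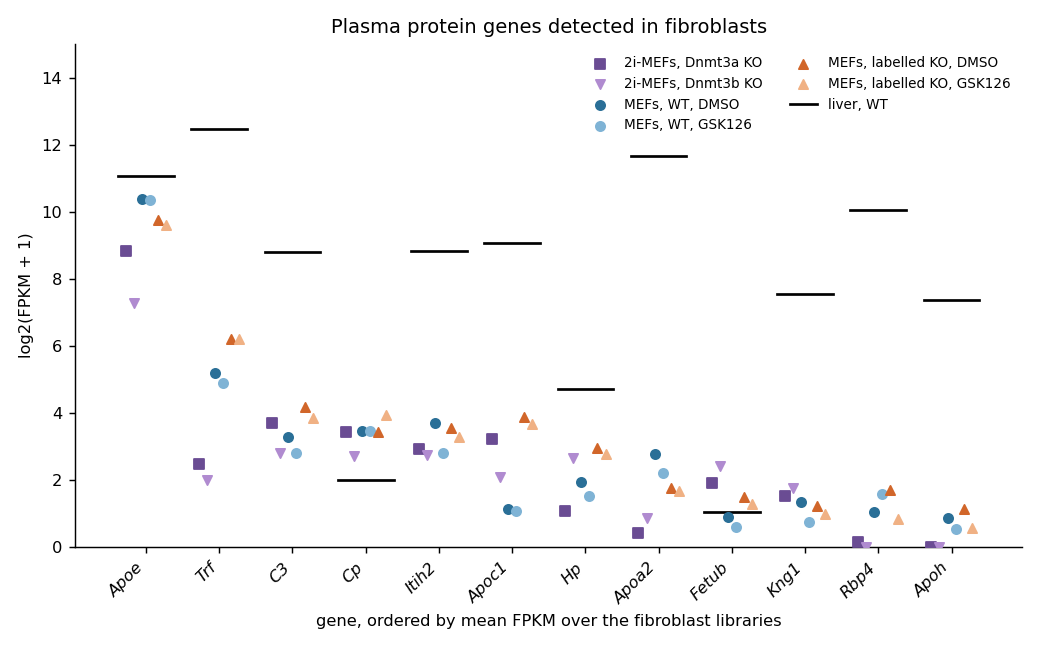
Level, as log2(FPKM + 1), of the 12 plasma protein genes that reached 1 FPKM in at least 1 of the 6 fibroblast libraries; each symbol is 1 library and the black bar is WT liver. *Cp* lies above the liver bar in all 6 libraries, and *Apoc1* and *Trf* are higher in MEFs labelled *Dnmt3a* KO than in WT MEFs.

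MEFs labelled *Dnmt3a* KO were compared with WT MEFs within each medium. With DMSO, 12 members averaged 1 FPKM or more and 4 differed at least 2-fold, 3 higher (*Apoc1*, *Trf* and *Hp*) and 1 lower (*Apoa2*), while 5.63% of all genes differed by that much. *Apoc1* was 1.202 FPKM in WT and 13.9 in the library labelled KO. The ratios of *Trf* (1.02), *Hp* (1.02) and *Apoa2* (-1.01) lay at the limit of 1 on the log2 scale, and with ratios centred on all genes 1 of the 3 higher members, *Apoc1*, was past it. With GSK126, 9 members were measured and 4 were at least 2-fold higher (*Apoc1*, *Trf*, *Hp* and *C3*), against 5.07% of all genes in either direction; *Apoc1* was 1.12 and 11.7 FPKM. The median over all 39 genes was 0.00 in both media. In the limma fit over both media 0 of 11 members passed an adjusted p of 0.05 and 6 an unadjusted one, where 0.0303% and 12.2% of all genes did, and *Apoc1* had the smallest adjusted p (0.070). Both media of a genotype label may share a culture, which these p-values do not cover. *Dnmt3a* itself was higher in the libraries labelled KO here, so no direction by genotype is drawn from these values.

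Under EZH2 inhibition no member differed 2-fold between GSK126 and DMSO in WT MEFs (10 measured, 3.00% of all genes in either direction) or in MEFs labelled KO (11 measured, 4.54% of all genes). In WT, 9 of 10 had lower values with GSK126 and the median of the 10 was -0.37, and in MEFs labelled KO 10 of 11 did, with a median of -0.22 over the 11. Among all genes 49.8% in WT and 54.6% in MEFs labelled KO had lower values. The limma fit over both genotype labels called 0 of 11 at an adjusted p under 0.05 (smallest 0.607) and 1 at an unadjusted one, where 0.0152% and 8.07% of all genes were. The lowest ratios were -0.91 for *Itih2* in WT and -0.87 for *Rbp4* in MEFs labelled KO. These pairs share their libraries with the genotype comparisons, so they are not separate evidence.

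*Dnmt3a* KO and *Dnmt3b* KO 2i-MEFs were compared with each other; a WT 2i-MEF expression library was not analysed here. Of 9 members measured, *Apoe* (457 and 153 FPKM) and *Apoc1* (8.32 and 3.31 FPKM) were at least 2-fold higher and *Hp* (1.12 and 5.34 FPKM) at least 2-fold lower in the *Dnmt3a* KO library, and 7.92% of all genes differed by that much. The neighbours *Apoe* and *Apoc1* thus differed in the same direction here. In MEFs with DMSO the directions were opposite, with *Apoe* at 1338 and 862 FPKM and *Apoc1* at 1.202 and 13.9 FPKM in WT and labelled KO, and this was not tested.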

How the data were processed

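RNA-seq (poly-A selected, stranded, single reads) of 10 libraries was analysed, 1 per condition. Per the paper's methods, the authors trimmed reads, aligned them to mm10 with the GENCODE annotation and kept uniquely mapped reads; the submitters' processing notes name cutadapt, TopHat2 2.1.0, Bowtie2 and Cufflinks 2.2.1. The deposited values are FPKM per gene, made by the authors with Cufflinks. No counts were used. Reads of 2i-MEFs carry MSM/Ms alleles, which can lower mapping to mm10. Unique mapping makes near-identical copies uncertain.

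FPKM of repeated symbols were summed (52609 rows, 52454 symbols). Depth was estimated from the spacing of low FPKM values: of the values used, 97.7% to 99.0% were within 0.1 of a whole read, and the method was tested on simulated data. Ratios are log2 of FPKM + 1, which understates changes of low genes. Counts at least 2-fold used genes that averaged 1 FPKM or more over the 2 libraries, and percentages of liver used genes with at least 1 FPKM in liver. With 1 library per condition, single pairs were not tested. limma 3.58.1 was fitted to log2(FPKM + 1) of the hearts and livers (organ and embryo) and of the MEFs (genotype label and medium), for genes averaging 1 FPKM or more, with p-values adjusted over all genes and the spread taken as a trend of the level. These fits were chosen after seeing the data, assume that the factors add, and were tested on simulated data. Organs were paired by the embryo number in the labels; the differences between embryos in liver and in heart had a correlation of -0.01 across genes. Shares of all genes stand beside the counts of members past a fold.

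The named genes were the 8 highest in WT liver, the 3 largest rises and the 3 largest falls between the livers, the 3 with the highest heart percentage in each embryo, the 5 highest in fibroblasts, at most 3 of each further list by mean liver level, and *Dnmt3a* and *Dnmt3b*. Other members were named to complete a count or a role, after their values were seen. The members and lists were chosen with earlier results of these data known, and the motif spellings after looking at their matches. Promoters are RefSeq's. Coordinates of genes are those of the deposited table. The DNA methylation samples were not analysed here. Analyses used Python 3 with pandas, numpy and scipy.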

Additional observations from a re-analysis of the deposited data

Results flagged for a closer look

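Results are listed here where a member's log2 ratio of FPKM + 1 had opposite signs in both settings of the same contrast, each at least 0.5 from 0. With 1 library per condition, none of these differences was tested.

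*Trf*, encoding transferrin, had a ratio of -0.79 in the liver labelled *Dnmt3a* KO against WT and of 0.94 in the heart labelled KO. *Hp*, encoding haptoglobin, had -0.51 in liver and 0.56 in heart, where its levels were 0.415 and 1.08 FPKM. *Rbp4*, the retinol carrier, had a ratio of 0.65 in MEFs labelled KO against WT with DMSO and of -0.75 with GSK126, and of 0.53 with GSK126 against DMSO in WT and of -0.87 in MEFs labelled KO. These 4 ratios of *Rbp4* come from the same 4 libraries, whose levels were 1.07 and 1.98 FPKM in WT and 2.25 and 0.778 FPKM in MEFs labelled KO.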

How the results depend on the processing

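No result at least 0.1 from 0 turned in sign. Medians of 0.00 have no sign to turn, and their alternatives lay on both sides of 0: -0.03 (centred) and 0.43 (members averaging 1 FPKM) for MEFs with DMSO, -0.01 and 0.49 with GSK126, 0.03 and -0.22 under GSK126 in MEFs labelled KO, and -0.02 and 0.47 in 2i-MEFs. Of 140 alternatives, 101 stayed within the limits set (0.1 log2 for a median, 1.5 times for a count, 1.1 times for a share). Without the replicate block of embryo, limma called the same 36 of 36 members higher in liver than in heart (largest adjusted p 0.0322), 20 of them measured through their liver level alone. With 3 libraries and no block it called 34 to 35, losing *Apoc1* without the WT liver, *Apoc1* and *Cp* without the liver labelled *Dnmt3a* KO, and *Apoe* without either heart. Other comparisons had no replicate to leave out.

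With a pseudocount of 0.1 the median ratio was -1.13 between hearts, and 7.92 and 9.03 for liver against heart in WT and in the pair labelled *Dnmt3a* KO. Centring on all genes gave 6.77 for the WT pair. Over members that averaged 1 FPKM or more the median was -1.28 between hearts, 7.10 for liver against heart in the pair labelled KO and -0.37 for GSK126 against DMSO in WT MEFs; many of the 39 genes are at 0 there.

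At 1.5-fold the counts, each with the share of all genes, were 9 lower in liver (6.69%), 2 higher in heart (5.23%), 6 higher (1440 of 13147 genes) and 2 lower (5.98%) in MEFs with DMSO, 2 lower with GSK126 (7.64%), 1 lower under GSK126 in WT (4.60%) and in MEFs labelled KO (9.56%), and 4 higher in 2i-MEFs (11.4%). Centring left 1 of 3 higher in MEFs with DMSO. A pseudocount of 0.1 gave 1 lower in MEFs with GSK126, and under GSK126 2 lower in WT and 1 in MEFs labelled KO, where the count was 0.

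Without erythroid genes in the total the share was 4.53% in WT liver and 3.07% in the liver labelled KO. Without *Alb*, *Afp*, *Trf* and *Apoe*, an alternative chosen after seeing the data, it was 1.62% and 1.33% in the livers, 0.00896% and 0.00877% in the hearts, 0.00662%, 0.00472%, 0.0102% and 0.00864% in MEFs (WT with DMSO and GSK126, then labelled KO), and 0.00636% and 0.00504% in *Dnmt3a* KO and *Dnmt3b* KO 2i-MEFs. Over members under 1 FPKM in all fibroblast libraries, also chosen afterwards, the median heart level was 0.270% of liver in WT and 0.0703% in the pair labelled KO. Over all members with at least 1 FPKM in liver it was 0.315% and 0.109%. With each heart set against the other label's liver, again chosen afterwards, that median of all members was 0.385% for the WT heart and 0.0891% for the heart labelled KO. Depth limits the low members, and the limit depends on transcript length: 0.356 FPKM of *Apoa2*, a short transcript, was about 1 read in *Dnmt3a* KO 2i-MEFs.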
